A study of Mus musculus with 16 samples.

Results

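The 36 genes described here belong to the type I interferon response and were followed through B1a cells of the peritoneal cavity and splenic B cells of 2 mouse strains. The set was drawn up by name, from genes known to be induced by type I interferon, with earlier results of these data known. Of the 36 genes, 34 had a probe set of their own among 15129 named genes tested in all, and 33 of these passed the filter on low values. Mx2, an antiviral GTPase, did not pass: it lay above the floor on 2 of 16 arrays, at 1.43 on Sle2c1_B1a 4 and 0.50 on B6_Bs 3. Isg15, the ubiquitin-like modifier, was measured by a probe set annotated to Isg15 and Gm9706 together, so it is described apart and enters no count of expression. The expression of Ifi44 was not analysed here.

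Type I interferons bind a receptor of the chains Ifnar1 and Ifnar2, whose kinases Jak1 and Tyk2 pass the signal to transcription factors. Irf9 is part of the complex ISGF3, which binds the interferon-stimulated response element in promoters and switches on genes that degrade viral RNA, block viral entry, sense nucleic acids or feed back on the pathway. A raised level of such transcripts in blood cells, the interferon signature, is a known feature of lupus.

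The 4 groups were peritoneal B1a cells and splenic B cells (Bs) of C57BL/6 mice (B6_B1a and B6_Bs) and of congenic B6.Sle2c1 mice (Sle2c1_B1a and Sle2c1_Bs), all 5 months old, with 4 arrays each, described by the submitters as biological replicates. B6.Sle2c1 mice have the C57BL/6 background and a lupus susceptibility interval derived from NZM2410, so the strains differ by a whole segment and not by 1 gene. B1a cells were what remained unattached after peritoneal cells had stood for 2 h at 10% serum to remove macrophages, minus cells taken out with Thy1.2 and CD3ε antibodies, and were then picked with a CD5 antibody to a purity put at 80% B220int CD5+. The Bs cells lacked CD43, were taken with a B cell kit and were above 90% B220hi; the protocol names no culture step for them. Cell type, organ and preparation therefore cannot be told apart in any B1a against Bs comparison. In these bulk samples fewer cells of a type and less RNA per cell cannot be told apart either. Neither a common mouse for same-numbered samples nor the sex of the mice is given, so p-values measure the spread between these samples.

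Each array value is a score of unknown log base and scale, and differences are given in its units and never as folds. Values under 0.495 were raised to this floor, under which they carry no level. Array medians ran from 0.68 to 1.12, and the lowest score of an array was shared by 27.6% to 35.6% of its probe sets on the B1a arrays and by 22.8% to 25.8% on the Bs arrays. This share moved with every B1a against Bs comparison, and its part in the low genes was not tested. The arrays Sle2c1_B1a 4, B6_Bs 1, B6_Bs 3 and Sle2c1_Bs 3 lay apart from their groups on the first principal components (48.8% and 16.6% of the variance). The 3′ minus 5′ difference of the actin control probes, a sign of RNA integrity, was 0.63 to 0.89 over the B1a arrays and 0.59 to 1.05 over the Bs arrays, with the highest value on B6_Bs 4. That of the Gapdh probes was 0.31 to 0.38 in B6_B1a, 0.26 to 0.52 in Sle2c1_B1a, 0.33 to 0.74 in B6_Bs and 0.42 to 0.59 in Sle2c1_Bs. The part of RNA integrity in the B1a against Bs comparisons was not tested.

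Marker genes bore out the labels in part. Cd5, the selecting antigen of B1a cells, averaged 1.08 in B6_B1a and 0.745 in Sle2c1_B1a and lay at the floor on all Bs arrays. Over 4 markers of follicular and marginal zone B cells the level averaged 3.00 and 3.10 in the Bs groups of B6 and Sle2c1 against 1.515 and 1.17 in their B1a groups. Macrophage transcripts differed between the B1a groups: the mean of 14 such markers was 1.29 to 2.31 over the B6_B1a arrays, 0.96 to 1.03 in Sle2c1_B1a, 1.24 to 1.28 in B6_Bs and 1.02 to 1.14 in Sle2c1_Bs. Timd4, Csf1r, C1qb, C1qc, Apoe and Vsig4 lay at the floor on every Sle2c1_B1a array, while Cd14 averaged 2.895 in B6_B1a and 2.775 in Sle2c1_B1a. Plasmacytoid dendritic cells are the main interferon producers. Over 5 of their markers the level averaged 1.65 and 1.68 in B1a cells of B6 and Sle2c1 and 1.37 and 1.36 in Bs cells. Of these markers 3 to 5 lay above the floor on a B1a array and 2 to 4 on a Bs array, so the means include values at the floor. Their defining gene Siglech lay at the floor on all Bs arrays and averaged 0.91 and 0.71 in the B1a groups. Mast cell markers (6) averaged 1.49 and 1.12 in the B1a groups of B6 and Sle2c1 against 0.60 and 0.63 in Bs cells, and NK cell markers (5) averaged 0.73 in both B1a groups against 1.36 and 1.18 in Bs cells. The part of these other cell types in the results on interferon genes was not tested.

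Promoters of part of the set carry the letters through which interferon acts. RefSeq promoter windows of build GRCm38.p6, from 250 bases before to 50 bases after a transcript start, were at hand for 24 of the 36 genes. The response element was searched on both strands as GAAA, any 2 bases and GAAA again. On the opposite strand this reads TTTC, 2 bases and TTTC. The element was found for 14 of 24 genes, 58.3%, against 3.99% of 27025 genes with a window. Ddx58, Eif2ak2, Ifih1 and Ifitm3 are among the 14, but none of their matches lies wholly before the start. Stretches of 7 windows are shown, 3 of genes higher in B1a cells (Gbp2, Gbp3, Oas1a), 1 of a gene lower there in B6 (Trim30a) and 3 of antiviral effectors that varied most within a group or had no call (Ifit1, Ifit3, Rsad2). Each is given 5′ to 3′ on the strand of its gene. Capitals mark the letters of 1 match, or of overlapping matches run together.
Gbp2, chr3:142620589-142620628, plus strand: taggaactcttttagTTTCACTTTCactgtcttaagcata
Gbp3, chr3:142559984-142560029, plus strand: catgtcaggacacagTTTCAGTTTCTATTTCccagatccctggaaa
Oas1a, chr5:120907526-120907560, minus strand: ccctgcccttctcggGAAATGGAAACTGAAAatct
Trim30a, chr7:104465205-104465244, minus strand: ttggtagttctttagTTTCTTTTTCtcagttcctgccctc
Ifit1, chr19:34640770-34640809, plus strand: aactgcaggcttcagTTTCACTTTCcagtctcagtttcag
Ifit3, chr19:34583358-34583397, plus strand: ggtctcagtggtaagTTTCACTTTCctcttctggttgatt
Rsad2, chr12:26456548-26456587, minus strand: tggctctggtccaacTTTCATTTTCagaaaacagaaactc
The matches in capitals begin 59 bases before the transcript start in Gbp2, 45 in Gbp3, 20 in Oas1a, 36 in Trim30a, 104 in Ifit1, 156 in Ifit3 and 120 in Rsad2. Ifit1 and Ifit3 each hold 1 further match, not in capitals, which begins 85 bases before the start in Ifit1 and 122 in Ifit3. Genes that were higher and genes that were lower in B1a cells both occur among the promoters with these letters. The windows of Cmpk2, Ifi35, Ifi44, Ifit2, Irf7, Irf9, Isg20, Oasl1, Oasl2 and Xaf1 hold no match, which says only that these letters are not in these windows.

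B1a and Bs cells differed in part of the interferon response, and in both directions. The genes higher in B1a cells of both strains were 7: the guanylate-binding proteins Gbp2 and Gbp3, the oligoadenylate synthetases Oas1a and Oas2, the sensor Zbp1, and the regulators Irf9 and Parp9. Cmpk2 was lower in B1a cells of both strains, but its call in B6 was lost in 8 of 16 alternative settings. In B6, 12 of the 33 genes passed limma's moderated test after Benjamini-Hochberg adjustment over all 22727 features, 7 higher and 5 lower in B1a cells, where 21.3% of all features passed (9.02% higher and 12.2% lower). In Sle2c1, 14 passed, 11 higher and 3 lower, where 25.8% of all features passed (11.0% higher and 14.7% lower). The median difference over the 33 genes was -0.05 in B6, equal to that of all features, and 0.20 in Sle2c1 against -0.045 for all features. The comparisons share no arrays with each other, but each shares its arrays with the strain comparisons.

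The split between higher and lower moved with the scaling. After quantile normalization 7 genes were higher and none lower in B6, after median centring 4 higher and 1 lower, and after median centring with interquartile scaling 7 higher and 2 lower. In Sle2c1 median centring gave 5 higher and 4 lower. Without B6_B1a 2 the calls in B6 fell to 7, and without B6_Bs 2 to 6, none of them lower in either case. Without the 4 arrays that lay apart, 7 were higher and 2 lower in B6, and 8 and 2 in Sle2c1. Of the 16 alternative settings tried for each call, those in B6 were lost in 7 for Usp18, 6 for Eif2ak2 and Oas2, and 4 for Ifit2 and Trim30a. In Sle2c1 they were lost in 6 for Ifi35, 4 for Cmpk2, Oas3 and Rtp4, 3 for Mx1, 2 for Parp14 and 1 for Ifitm3.

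**Figure D1:**
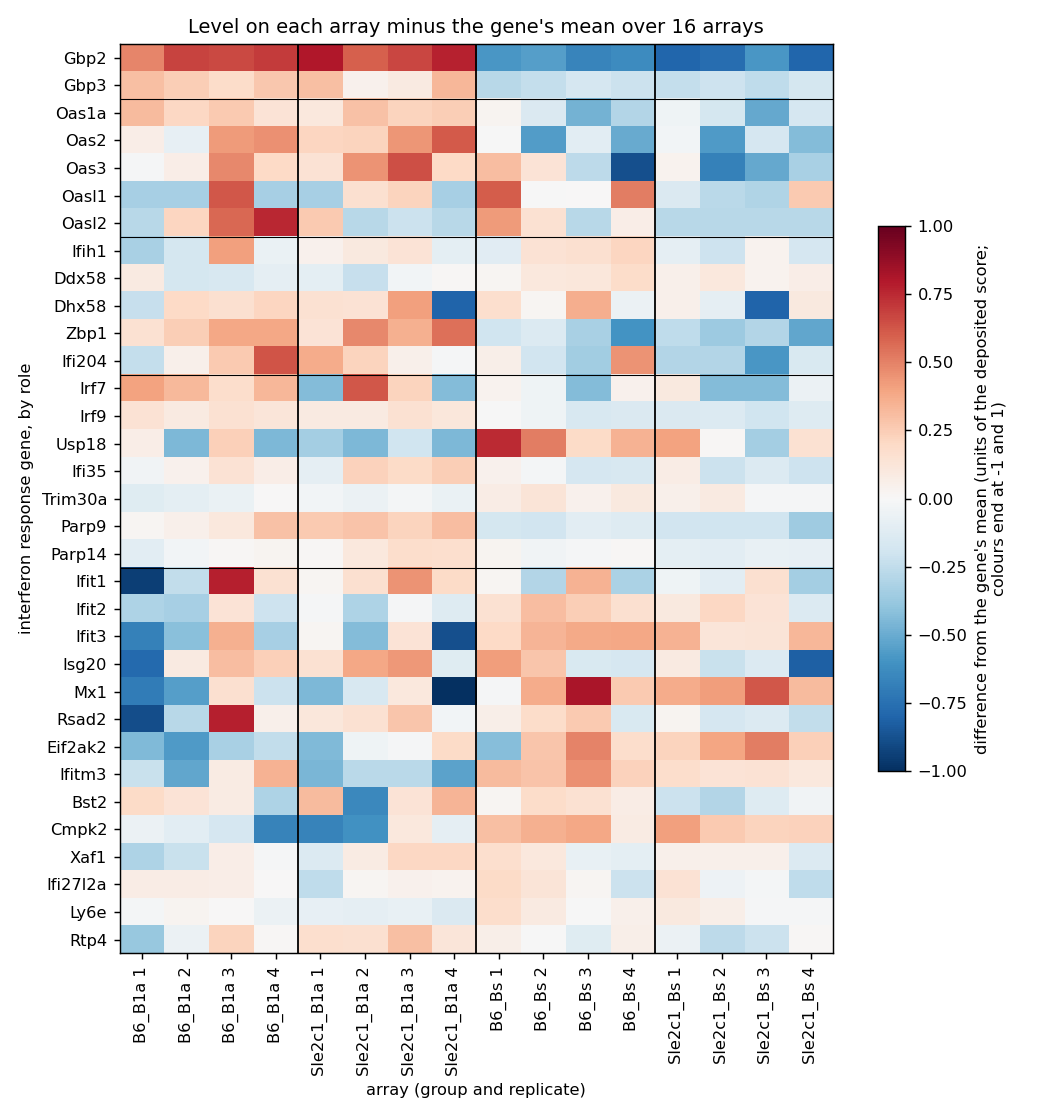
Heat map of the 33 tested interferon response genes (rows, grouped by role) on the 16 arrays (columns). Colour gives the level minus the mean of that gene over all arrays, in units of the deposited score; values below the floor of 0.495 were set to it, and colours end at -1 and 1. Gbp2 and Gbp3 at the top are red on all 8 B1a arrays and blue on all 8 Bs arrays, while Ifit1 and Rsad2 go from dark blue on B6_B1a 1 to dark red on B6_B1a 3 within 1 group.

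**Figure D2:**
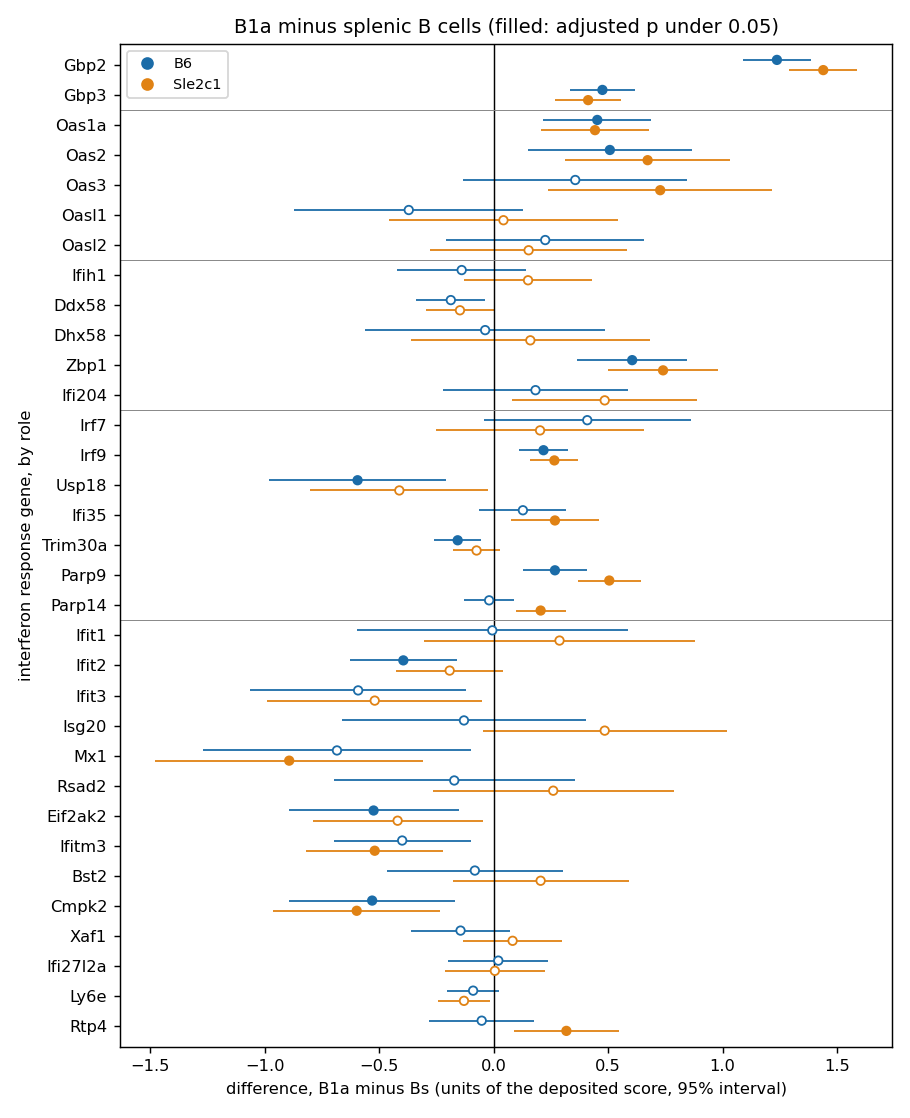
Difference between B1a and Bs cells (horizontal axis, units of the deposited score) of each tested gene in B6 (blue) and Sle2c1 (orange), with 95% confidence intervals from the limma fit. Filled points passed at an adjusted p under 0.05: 12 in B6 and 14 in Sle2c1. Gbp2 stands at 1.24 and 1.44, and most filled points left of 0 belong to the antiviral effectors in the lowest block.

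The guanylate-binding proteins are large GTPases that coat and break open vacuoles of intracellular microbes and respond to interferon gamma as well as to type I interferon. Gbp2 gave 2.50, 2.69, 2.67 and 2.71 on the B6_B1a arrays and 1.43, 1.46, 1.35 and 1.38 on the B6_Bs arrays. In Sle2c1 the values were 2.81, 2.61, 2.68 and 2.78 in B1a and 1.22, 1.25, 1.43 and 1.22 in Bs cells. Every B1a array lay above every Bs array by at least 1 unit. The difference was 1.24 ± 0.069 (SE) in B6 (limma adjusted p = 1.29e-08) and 1.44 ± 0.069 in Sle2c1 (adjusted p = 2.47e-09), and a second probe set of Gbp2 gave 1.33 and 1.625.

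Gbp3 gave 2.98, 2.92, 2.86 and 2.95 in B6_B1a against 2.40, 2.44, 2.51 and 2.46 in B6_Bs. Its Sle2c1 values were 2.98, 2.72, 2.77 and 3.01 in B1a and 2.44, 2.47, 2.42 and 2.50 in Bs cells. The cell types did not overlap in either strain. The differences were 0.475 ± 0.067 (SE; adjusted p = 0.000161) and 0.41 ± 0.067 (adjusted p = 0.000411).

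Of the 5 oligoadenylate synthetases and their relatives, 2 were higher in B1a cells of B6, 3 in those of Sle2c1, and none was lower, where 9.02% and 11.0% of all features were higher. Oas1a, which makes the short oligoadenylates that activate RNase L, gave 2.01, 1.90, 1.96 and 1.83 in B6_B1a and 1.72, 1.55, 1.22 and 1.40 in B6_Bs. The Sle2c1 arrays gave 1.80, 1.99, 1.92 and 1.94 in B1a against 1.65, 1.52, 1.18 and 1.53 in Bs cells. Both comparisons were free of overlap, with the Bs arrays spread more widely. The differences were 0.45 ± 0.11 (SE; adjusted p = 0.00983) and 0.44 ± 0.11 (adjusted p = 0.00909); after median centring the adjusted p-values were 0.054 and 0.0846.

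Oas2, a second synthetase, gave 1.18, 1.03, 1.54 and 1.57 in B6_B1a and 1.11, 0.56, 1.01 and 0.61 in B6_Bs. In Sle2c1 it gave 1.33, 1.34, 1.56 and 1.73 in B1a and 1.09, 0.55, 0.95 and 0.68 in Bs cells. The groups overlapped in B6 and did not in Sle2c1. The difference of 0.51 ± 0.17 (SE) in B6 passed narrowly (adjusted p = 0.0445) and was lost when any of 9 arrays was left out (adjusted p of 0.0515 to 0.131), while the 0.67 ± 0.17 in Sle2c1 (adjusted p = 0.00899) passed without any 1 array.

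Oas3, the longest synthetase, was higher in B1a cells of Sle2c1 by 0.73 ± 0.23 (SE; adjusted p = 0.031). Its values there were 1.52, 1.82, 2.02 and 1.57 in B1a and 1.41, 0.70, 0.86 and 1.05 in Bs cells, without overlap. The call was lost without Sle2c1_B1a 2, Sle2c1_B1a 3, Sle2c1_Bs 2, Sle2c1_Bs 3 or Sle2c1_Bs 4 (adjusted p of 0.0514 to 0.0932). In B6 the B1a arrays gave 1.36 to 1.85 and the Bs arrays ran from the floor to 1.68, a difference of 0.36 ± 0.23 that missed the threshold (adjusted p = 0.289). Oasl1, which restrains Irf7 translation, lay at the floor on 5 of 8 B1a arrays, and Oasl2 on 8 of 16 arrays in all. Neither had a call; their B6 differences were -0.37 and 0.225.

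**Figure D3:**
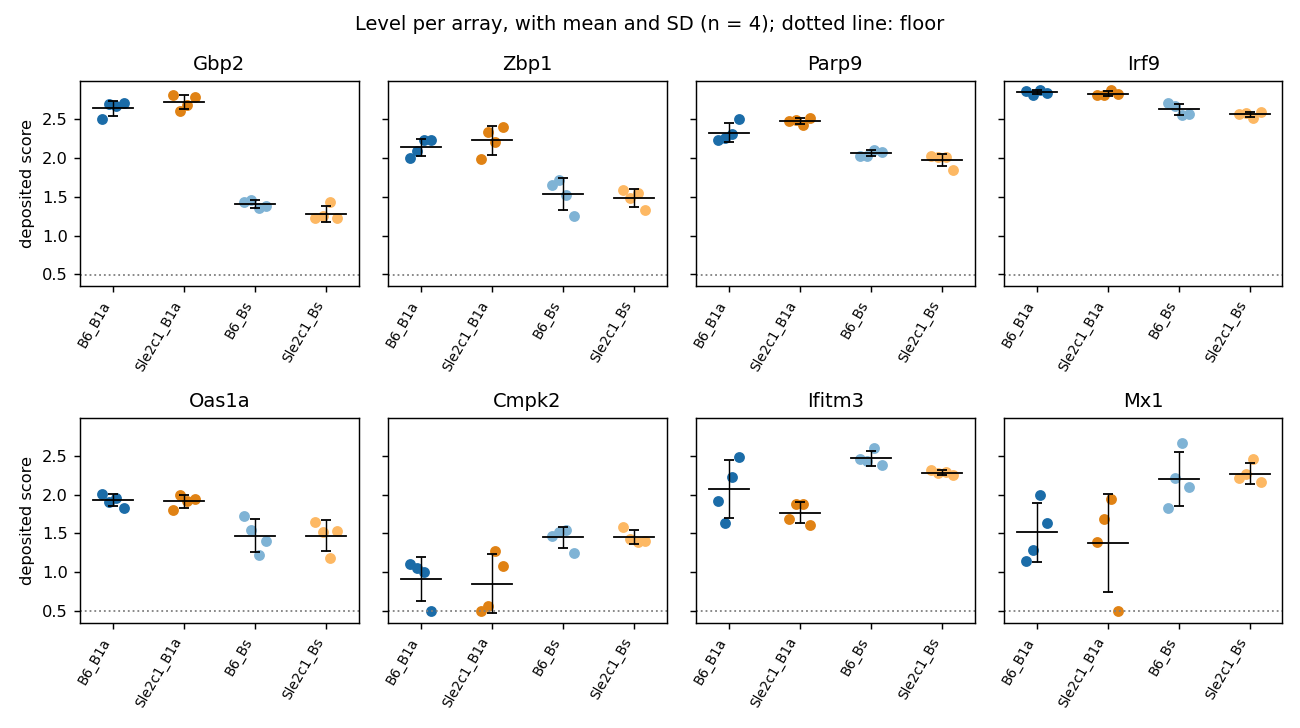
Level of 8 interferon response genes on each array (points) by group, with the group mean (bar) and SD (whiskers, n = 4), in units of the deposited score. Gbp2, Zbp1, Parp9, Irf9 and Oas1a are higher on all B1a arrays than on all Bs arrays of their strain; Cmpk2 is lower, and Ifitm3 and Mx1 are lower without overlap in Sle2c1. The dotted line is the floor of 0.495, at which values below it are drawn.

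Among the nucleic acid sensors 1 of 5 genes, Zbp1, was higher in B1a cells of both strains, a share near that of all features called in either direction (21.3% and 25.8%). Zbp1 detects left-handed nucleic acids and can trigger necroptosis. It gave 2.00, 2.09, 2.23 and 2.23 in B6_B1a and 1.65, 1.71, 1.52 and 1.25 in B6_Bs, and the Sle2c1 arrays gave 1.98, 2.33, 2.20 and 2.40 in B1a against 1.59, 1.48, 1.55 and 1.33 in Bs cells. All B1a arrays lay above all Bs arrays. The differences were 0.605 ± 0.11 (SE; adjusted p = 0.00148) and 0.74 ± 0.11 (adjusted p = 0.00022). A second probe set of Zbp1 gave 0.44 and 0.54, neither past the threshold when every probe set was tested (adjusted p = 0.15 and 0.0707).

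The cytoplasmic RNA sensors showed no call. Ifih1 (MDA5) differed by -0.14 ± 0.13 (SE) in B6 and 0.15 ± 0.13 in Sle2c1. Ddx58 (RIG-I) differed by -0.19 ± 0.070 (adjusted p = 0.0719) and -0.15 ± 0.070 (adjusted p = 0.137), and a further probe set of it gave 0.16 and 0.17, so its direction is not settled. Dhx58 (LGP2), which modulates both, differed by -0.04 and 0.16 with an SE of 0.24. Ifi204, a DNA-binding protein of the PYHIN family, differed by 0.485 ± 0.19 in Sle2c1 without overlap, at an adjusted p of 0.0738.

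The 7 transcription factors and regulators held 2 higher and 2 lower genes in B6 and 4 higher in Sle2c1, where 9.02% of all features were higher and 12.2% lower in B6, and 11.0% and 14.7% in Sle2c1. Irf9, the DNA-binding subunit of ISGF3, gave 2.86, 2.81, 2.87 and 2.84 in B6_B1a and 2.71, 2.67, 2.56 and 2.57 in B6_Bs. In Sle2c1 it gave 2.81, 2.81, 2.87 and 2.83 in B1a and 2.57, 2.58, 2.52 and 2.59 in Bs cells. Its B1a arrays lay within 0.06 of each other in either strain and above all Bs arrays. The differences were small but clear of the spread, 0.22 ± 0.049 (SE; adjusted p = 0.00609) and 0.265 ± 0.049 (adjusted p = 0.00118), except after median centring (adjusted p = 0.165 and 0.157).

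Parp9, which acts with a ubiquitin ligase in interferon signalling, gave 2.23, 2.26, 2.31 and 2.50 in B6_B1a against 2.03, 2.02, 2.10 and 2.08 in B6_Bs. The Sle2c1 values were 2.47, 2.49, 2.43 and 2.52 in B1a against 2.02, 2.01, 2.01 and 1.85 in Bs cells. No overlap was seen in either strain. The differences were 0.27 ± 0.065 (SE; adjusted p = 0.00926) and 0.505 ± 0.065 (adjusted p = 5.03e-05).

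Parp14, an ADP-ribosyl transferase of the same family, was higher in B1a cells of Sle2c1, at 2.62, 2.71, 2.78 and 2.77 against 2.51, 2.50, 2.53 and 2.52. In B6 it gave 2.50, 2.58, 2.62 and 2.63 in B1a and 2.63, 2.57, 2.59 and 2.62 in Bs cells. The groups overlapped in B6 and did not in Sle2c1, where the difference was 0.205 ± 0.051 (SE; adjusted p = 0.00912) against -0.02 in B6. A second probe set of Parp14 gave 0.06 in B6 and -0.035 in Sle2c1. Ifi35, a partner of Nmi, was higher in B1a cells of Sle2c1 by 0.27 ± 0.089 (adjusted p = 0.0398), with 0.13 in B6 (adjusted p = 0.334), and its call was lost when any of 9 arrays was left out (adjusted p of 0.0501 to 0.109) and with the replicate block (0.0679).

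Usp18, which strips Isg15 from proteins and blocks the interferon receptor, was lower in B1a cells of B6. It gave 1.01, 1.18 and 2 values at the floor in B6_B1a and 1.69, 1.45, 1.13 and 1.29 in B6_Bs, with 1 B1a array above the lowest Bs array. The difference was -0.595 ± 0.18 (SE; adjusted p = 0.0316), lost without B6_B1a 2, B6_B1a 4, B6_Bs 1, B6_Bs 2 or B6_Bs 4 (adjusted p of 0.0512 to 0.0969). In Sle2c1, where B1a arrays gave 0.60, 0.74 and 2 values at the floor, it was -0.41 ± 0.18 (adjusted p = 0.109). Trim30a, a ubiquitin ligase that restrains NF-kB, was lower in B6 (-0.16 ± 0.048, adjusted p = 0.0329), but not without B6_B1a 1, B6_B1a 2, B6_B1a 3, B6_Bs 2 or B6_Bs 4 (adjusted p of 0.067 to 0.0954), and a second probe set gave -0.03. Irf7, the factor that drives interferon alpha genes, differed by 0.41 ± 0.21 in B6 without overlap and did not pass (adjusted p = 0.186).

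The antiviral effectors had most of the lower values. Of 14 tested, 3 were lower and none higher in B1a cells of B6, and 3 were lower and 1 higher in those of Sle2c1, against 12.2% and 14.7% of all features lower. Cmpk2, a mitochondrial nucleotide kinase encoded beside Rsad2, gave 1.11, 1.06, 1.00 and the floor in B6_B1a against 1.47, 1.52, 1.55 and 1.25 in B6_Bs. In Sle2c1 the B1a arrays gave 0.56, 1.27, 1.08 and the floor, and the Bs arrays 1.58, 1.43, 1.39 and 1.40. All B1a arrays lay below all Bs arrays. The differences were -0.53 ± 0.17 (SE; adjusted p = 0.039) and -0.60 ± 0.17 (adjusted p = 0.0187), whereas a second probe set of Cmpk2 gave -0.01 and 0.20. The call in B6 was lost when any of 7 arrays was left out (adjusted p of 0.052 to 0.108), under quantile normalization (0.101), median centring without and with interquartile scaling (0.0575 and 0.0529), the replicate block (0.0505) and without a floor (0.757), and that in Sle2c1 without Sle2c1_B1a 1, Sle2c1_B1a 2 or Sle2c1_Bs 1 (0.0522 to 0.0598).

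Ifit2, whose family binds foreign RNA, gave 1.00, 0.98, 1.45 and 1.10 in B6_B1a and 1.46, 1.62, 1.56 and 1.47 in B6_Bs, without overlap. The difference was -0.395 ± 0.11 (SE; adjusted p = 0.02) in B6 and -0.19 ± 0.11 in Sle2c1 (adjusted p = 0.21). The call was lost without B6_B1a 1, B6_B1a 2 or B6_Bs 2 (adjusted p = 0.0605, 0.0654 and 0.0613). Ifit3 pointed the same way, by -0.59 and -0.52, and passed in neither strain (adjusted p = 0.0691 and 0.0968).

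Mx1 encodes a GTPase that traps influenza virus, and C57BL/6 mice are known to carry a defective allele. It gave 1.14, 1.29, 2.00 and 1.63 in B6_B1a and 1.83, 2.21, 2.66 and 2.10 in B6_Bs, and in Sle2c1 1.39, 1.68, 1.95 and the floor in B1a against 2.21, 2.26, 2.46 and 2.16 in Bs cells. The Sle2c1 groups did not overlap. The difference passed in Sle2c1 (-0.89 ± 0.27, SE; adjusted p = 0.0278) and not in B6 (-0.685 ± 0.27; adjusted p = 0.0899). Leaving out Sle2c1_B1a 4, the array at the floor, gave an adjusted p of 0.0544, and the call was also lost without Sle2c1_B1a 1, Sle2c1_Bs 1, Sle2c1_Bs 2 or Sle2c1_Bs 3 (0.0505 to 0.0746).

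Ifitm3, which stops viruses in endosomes, gave 1.92, 1.63, 2.23 and 2.49 in B6_B1a and 2.46, 2.43, 2.60 and 2.38 in B6_Bs. The Sle2c1 arrays gave 1.69, 1.88, 1.88 and 1.61 in B1a against 2.32, 2.28, 2.29 and 2.25 in Bs cells. Sle2c1 showed a clean gap, and in B6 1 B1a array, B6_B1a 4, reached the Bs range. The differences were -0.52 ± 0.14 (SE; adjusted p = 0.0142) in Sle2c1 and -0.40 ± 0.14 (adjusted p = 0.0563) in B6. Rtp4, known to bind flavivirus replication sites, was higher in B1a cells of Sle2c1 by 0.32 ± 0.11 (adjusted p = 0.0415; B6 -0.05) and lost its call when any of 10 arrays was left out (adjusted p of 0.0503 to 0.117) and with the replicate block (0.0581).

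Eif2ak2, the kinase PKR that halts translation, was lower in B1a cells of B6 (-0.525 ± 0.17, SE; adjusted p = 0.0446), a call lost when any of 13 arrays was left out (adjusted p of 0.0508 to 0.138). Its Sle2c1 difference was -0.42 ± 0.17 (adjusted p = 0.0899). Further probe sets of Eif2ak2 gave 0.155 and -0.09 in B6, so its direction depends on the probe set. Ifit1, Rsad2, Isg20, Bst2, Xaf1, Ifi27l2a and Ly6e had no call in either strain at their probe sets of highest mean. These differences ran from -0.17 (Rsad2, B6) to 0.485 (Isg20, Sle2c1). A second probe set of Ly6e gave -0.315 in B6 and -0.345 in Sle2c1, both without overlap. Both passed when every probe set was tested (limma adjusted p = 0.0159 and 0.00727). A further probe set of Rsad2 gave 0.16 in B6 and 0.43 in Sle2c1, the latter without overlap, and passed in neither (adjusted p = 0.619 and 0.132). The probe set shared by Isg15 and Gm9706 differed by -0.40 ± 0.20 in B6 (adjusted p = 0.164) and -0.45 ± 0.20 in Sle2c1 (adjusted p = 0.108).

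Whether B1a arrays lay wholly above or below Bs arrays gave a like picture. In B6, 7 genes were higher and 3 lower without overlap, where 22.4% of all features had none (10.7% higher and 11.6% lower). In Sle2c1, 11 were higher and 7 lower, where 25.5% of all features had none (10.0% higher and 15.5% lower). Among the 18 genes called in either strain, 4 were called in B6 alone and 6 in Sle2c1 alone; the test of whether the cell type difference itself differed between strains passed for none of them, as given below.

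Replicates of B6_B1a differed widely in the induced effectors. Ifit1, which keeps viral RNA from being translated, gave 1.19, 2.22 and 1.59 on arrays 2, 3 and 4 and lay at the floor on array 1. Rsad2 (viperin), which makes an antiviral nucleotide, gave 1.24, 1.85, 2.91 and 2.18 on these 4 arrays. Array 3 was above the group mean for 29 of the 33 genes, where 38.4% of all features were, and array 1 was the lowest of its group for 18 of the 33 genes. The mean of the 14 effectors was 1.67, 1.85, 2.24 and 1.97 on B6_B1a 1 to 4, a range wider than between any group means of this list.

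In Sle2c1_B1a, array 3 likewise lay above its group mean for 27 of 33 genes (37.2% of all features), with an effector mean of 2.19 against 1.90 to 1.95 on the other 3. The median range of a gene over 4 arrays was 0.47 in B6_B1a and 0.33, 0.33 and 0.27 in Sle2c1_B1a, B6_Bs and Sle2c1_Bs. Macrophage marker means on B6_B1a 1 to 4 were 1.87, 1.29, 1.88 and 2.31, and the Gapdh 3′ minus 5′ differences were 0.31 to 0.38. The part of either in this spread was not tested.

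**Figure D4:**
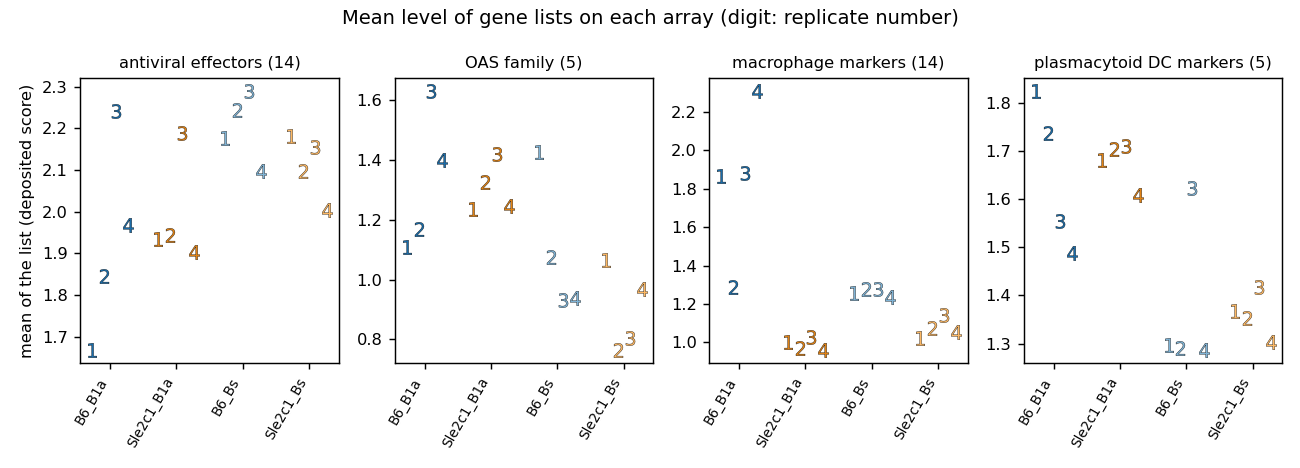
Mean level on each array (vertical axes, units of the deposited score; each panel has its own scale) of 14 antiviral effectors, 5 oligoadenylate synthetases and relatives, 14 macrophage markers and 5 markers of plasmacytoid dendritic cells. Digits are replicate numbers and columns are groups. Among B6_B1a arrays, number 3 is highest and number 1 lowest for the effectors (2.24 and 1.67), while number 4 is highest for the macrophage markers (2.31).

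Between the strains, no interferon response gene passed in B1a cells. In that comparison 3.38% of all features passed limma's test (1.93% higher and 1.45% lower in Sle2c1), and 0 of the 33 genes did; 5 had an unadjusted p under 0.05, the smallest adjusted p was 0.181, and no other setting or form of the fit called any. Differences ran from -0.44 to 0.32, 18 positive and 15 negative, with a median of 0.02 against 0.025 for all features. The 95% confidence interval reached 0.30 to either side of a difference in the median over genes, from 0.104 to 0.592. Groups did not overlap for 1 gene, the surface protein Ly6e (lower in Sle2c1, -0.09 ± 0.053, SE), where 8.38% of all features had no overlap (4.23% higher and 4.15% lower). A second probe set of Ly6e gave 0.06 with overlap, so its direction depends on the probe set.

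The genes nearest to the threshold in B1a cells pointed both ways. Parp14, whose arrays are listed above, differed by 0.14 ± 0.051 (SE) (adjusted p = 0.181), with its lowest Sle2c1 array, 2.62, inside the B6 range. Its second probe set gave -0.08. Parp9 differed by 0.15 ± 0.065 (adjusted p = 0.243), and B6_B1a 4 at 2.50 lay within the Sle2c1 range.

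Rtp4 gave 2.08, 2.40, 2.68 and 2.47 in B6_B1a and 2.63, 2.62, 2.76 and 2.58 in Sle2c1_B1a. The difference was 0.24 ± 0.11 (SE; adjusted p = 0.266). Oasl2 gave 0.99, 1.35, 1.53 and the floor in B6_B1a against 1.04, 0.56 and 2 arrays at the floor in Sle2c1_B1a, which differed by -0.44 ± 0.20 (adjusted p = 0.277). The strains overlapped in both genes. Ifitm3 differed by -0.30 ± 0.14 (adjusted p = 0.287). By the same test 7 of 14 macrophage markers were lower in Sle2c1_B1a, where 1.45% of all features were. The part of macrophages in the strain differences of interferon genes was not tested.

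In Bs cells 29 of the 33 genes had a lower mean in Sle2c1 and 4 a higher one, but none passed. Of all features 0.154% passed (0.123% higher and 0.0308% lower). The median difference was -0.09 against 0.015 for all features, and single genes ran from -0.395 to 0.21. Every adjusted p was 1; 1 gene, Usp18, had an unadjusted p under 0.05, and no other setting called any. Genes on the same arrays share whatever sets those arrays apart, so that this count of signs has no test. Some marker lists also had lower means in Sle2c1_Bs, 11 of 14 for macrophages, 5 of 5 for conventional dendritic cells and 6 of 7 for neutrophils. Of the macrophage markers 5 were lower without overlap, where 1.15% of all features were. NK cell, plasma cell and T cell markers were each 1 higher and 4 lower, and eosinophil markers 0 and 3. B cell and B1a cell markers were each 2 higher and 3 lower, and the 1 erythroid marker tested was lower. The remaining lists did not lean lower. Follicular and marginal zone markers were higher in 4 of 4. Mast cell markers were 3 higher and 1 lower, and plasmacytoid dendritic cell markers 2 and 2. Of all features 56.1% had a higher mean. None of these markers passed, and their part in the interferon genes was not tested.

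Usp18 gave 1.69, 1.45, 1.13 and 1.29 in B6_Bs and 1.34, 0.95, 0.60 and 1.09 in Sle2c1_Bs (-0.395 ± 0.18, SE). Oasl2 gave 1.20, 0.93, 0.84 and the floor in B6_Bs and lay at the floor on all 4 Sle2c1_Bs arrays, so that the difference of -0.37 ± 0.20, with arrays at the floor in both groups, sets no size. Gbp2 differed by -0.125 ± 0.069 and Parp14 by -0.09 ± 0.051, while the second probe set of Parp14 gave 0.01. Usp18, Oasl2 and Gbp2 overlapped between the strains. The 3 genes without overlap were all lower in Sle2c1: Parp14, Ifitm3 (-0.18 ± 0.14) and the viral tether Bst2 (-0.28 ± 0.18), where 2.34% of all features were without overlap (1.19% higher and 1.15% lower). Same-numbered Bs arrays deviated together, and with the replicate block the count of calls remained 0.

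**Figure D5:**
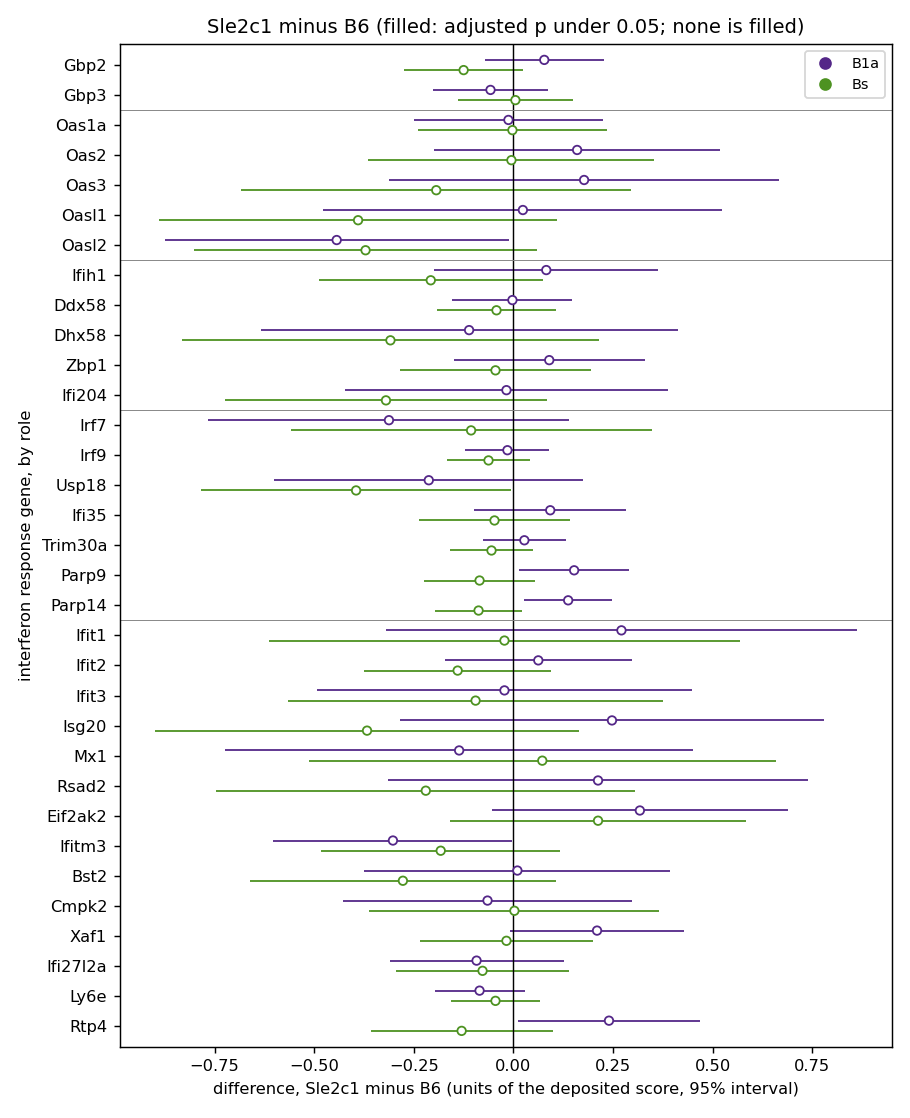
Difference between Sle2c1 and B6 (horizontal axis, units of the deposited score) of each tested gene in B1a cells (purple) and Bs cells (green), with 95% confidence intervals from the limma fit. No point is filled, since none passed at an adjusted p under 0.05. In Bs cells 29 of 33 points lie left of 0, against 15 of 33 in B1a cells.

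The difference of the strain effects, B1a minus Bs, was tested in the same fit and passed for none of the 33 genes, where 0.431% of all features passed (0.264% higher and 0.167% lower). By unadjusted p, 3 genes lay under 0.05, and no other setting called any. Parp14 came nearest at 0.225 ± 0.072 (SE; adjusted p = 0.364), followed by Parp9 at 0.24 ± 0.091 (adjusted p = 0.559) and Rtp4 at 0.37 ± 0.15 (adjusted p = 0.607). In each of these the strain difference was positive in B1a and negative in Bs cells. The second probe set of Parp14 went the other way, with a difference of strain effects of -0.09, so its direction depends on the probe set. The median over the genes was 0.165 against 0.005 for all features, 24 positive and 9 negative. The 95% interval reached 0.424 to either side in the median.

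The rest of the pathway was read from 124 further genes, of which 96 were tested. In B6, 21 were higher and 18 lower in B1a cells, and in Sle2c1 20 were higher and 19 lower, against the shares of all features given above. Of 18 interferon genes listed, 4 passed the filter (Ifna1, Ifna5, Ifna11 and Ifnz) and none was called in any comparison. Of 5 receptor and signalling genes tested, Ifnar2, a receptor chain, was higher in B1a cells by 0.33 ± 0.10 (SE; adjusted p = 0.0352) in B6 and 0.30 ± 0.10 (adjusted p = 0.0444) in Sle2c1. Stat2, the partner of Irf9 in ISGF3, was higher in B6 by 0.35 ± 0.10 (adjusted p = 0.0236; Sle2c1 0.16, adjusted p = 0.252), and Ifnar1, Jak1 and Tyk2 had no call.

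Among 6 feedback inhibitors 2 were higher and 1 lower in B1a cells of each strain, or 50%, where 21.3% of all features were called in B6 and 25.8% in Sle2c1. Socs3, which shuts off cytokine receptors, averaged 3.77 and 3.62 in B1a cells of B6 and Sle2c1 and 1.71 and 1.44 in their Bs cells. Its difference was 2.055 ± 0.23 (SE; adjusted p = 1.55e-05) and 2.18 ± 0.23 (adjusted p = 6.97e-06). Ptpn6, the phosphatase SHP-1, was lower in B1a cells, with differences of -0.52 ± 0.054 (adjusted p = 8.38e-06) and -0.44 ± 0.054 (adjusted p = 3.24e-05).

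Sensors, adaptors and kinases split as well, 4 higher and 2 lower of 13 in each strain (46.2%, against 21.3% and 25.8% of all features). Myd88, the adaptor of most Toll-like receptors, was higher in B1a cells by 0.74 and 0.50 (adjusted p = 2.51e-05 and 0.000641). Tlr3, the endosomal sensor of double-stranded RNA, was lower (-0.825 and -0.73, adjusted p = 3.47e-06 and 1.03e-05). Sting1, the adaptor for cytosolic DNA, was lower (-0.33 and -0.495, adjusted p = 0.0111 and 0.000519).

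The list of interferon gamma, its receptor chains and its targets gave 4 higher and 2 lower of 11 tested in B6. In Sle2c1 it gave 5 higher and 4 lower. These are 54.5% and 81.8%, against 21.3% and 25.8% of all features. Further guanylate-binding proteins were among the higher ones, with Gbp7 at 0.735 and 0.70 (adjusted p = 1.76e-07 and 2.55e-07) and Gbp6 at 0.825 and 1.10 (adjusted p = 0.000381 and 2.24e-05). Cd274 (PD-L1) was higher by 0.66 and 0.575, and Igtp, a GTPase of the immunity-related family, was lower (-0.76 and -0.49, adjusted p = 7.54e-06 and 0.000339). The regulatory factor Irf8 was lower in B1a cells of both strains (-0.195 and -0.19, adjusted p = 0.0347 and 0.0334). Of the 6 such factors tested, Irf4 and Irf1 were higher (0.305 and 0.30, adjusted p = 0.00414 and 0.0223) and Irf5 lower (-0.21, adjusted p = 0.014) in B6, and Irf2 lower (-0.18, adjusted p = 0.0164) in Sle2c1.

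Of 51 other interferon-stimulated genes 7 were higher and 11 lower in B6, and 8 and 10 in Sle2c1. Either count is 35.3%, against 21.3% and 25.8% of all features. Plscr1, a phospholipid scramblase, was higher in B1a cells by 1.65 ± 0.062 (SE; adjusted p = 1.67e-10) and 1.75 ± 0.062 (adjusted p = 8.28e-11). Ms4a4c, a membrane protein of the CD20 family, was lower, with differences of -1.285 ± 0.11 (adjusted p = 1.29e-06) and -1.43 ± 0.11 (adjusted p = 3.58e-07).

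Between the strains 2 of the 96 pathway genes passed in B1a cells and 0 in Bs cells by limma, against 3.38% and 0.154% of all features; 2 of 96 is 2.08%, below the share of all features. In Bs cells 3 had an unadjusted p under 0.05, and without a floor 1 passed. Tlr7, the endosomal sensor of single-stranded RNA, was higher in Sle2c1_B1a by 0.34 ± 0.080 (SE; adjusted p = 0.0319), with means of 2.41 ± 0.099 (SD, n = 4) in B6 and 2.75 ± 0.16 in Sle2c1. Ifi203, a PYHIN protein, was lower (-0.59 ± 0.13, adjusted p = 0.0194), with means of 1.40 and 0.81. Groups did not overlap in either gene. In Bs cells the differences were 0.07 for Tlr7 and 0.01 for Ifi203, and the difference of strain effects passed for neither (adjusted p = 0.619 and 0.301). A fit of the 8 B1a arrays alone called neither. Without B6_B1a 2 neither passed, and without B6_B1a 3, B6_B1a 4 or Sle2c1_B1a 3 the count was 1.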

How the data were processed

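RNA abundance was measured on 16 arrays after Qiagen RNeasy Micro extraction and NuGEN Ovation amplification, per the labels' protocols. The authors deposited 1 table of 45101 probe sets whose unit is a score; its log base, centring and scaling, and the software that made it, are not given in the sources used here. Log2 values had been assumed when the tests were planned; the moderated test was kept and no folds are given. Precision is limited by how many arrays there are.

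The 40th percentile was taken on each array, and its median, 0.495, served as the floor to which lower values were set. A probe set was kept (35032 were) if it exceeded that percentile on 4 or more of the 16 arrays, and each gene was represented by its probe set of highest mean, which left 22727 features (15129 named genes, 7598 probe sets without 1 name). Of the probe sets, 34958 had 1 gene symbol, 932 several and 9211 none; symbols were updated through a RefSeq table of GRCm38.p6, whose promoters are credited to RefSeq. A model of 4 group means was fitted with limma 3.58.1 in R 4.3.3, with two-sided moderated tests, p-values adjusted by Benjamini-Hochberg across the features, and calls at 0.05. The fit was tested on simulated data. Alternatives were other floors, filters, scalings, summaries of probe sets, forms of the fit, replicate blocks, and leaving out each array or the 4 that lay apart.

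Same-numbered arrays deviated together between B6_Bs and Sle2c1_Bs (correlations of 0.172 to 0.755, 4 of 4 pairs over 0.1), and in B1a cells 2 of 4 pairs were over 0.1. Of the B6_Bs arrays 3 correlated best with their own number in Sle2c1_Bs, and B6_Bs 1 with Sle2c1_Bs 4 gave 0.486. Any such pairing comes from the data, since the labels do not explain the numbers. The main fit therefore held no term for the replicate number, and such replicate blocks were run as alternatives only.

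The 36 genes and all lists were chosen with earlier results of these data known. Values on every array are given for the 8 genes with the smallest adjusted p in each cell type comparison and the 4 in each strain comparison; Cmpk2, Mx1, Ifitm3, Oas3, Ifit1 and Rsad2 were added after their values were seen. Up to 4 genes of each pathway list are named, by smallest adjusted p.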

Additional observations from a re-analysis of the deposited data

Results flagged for a closer look

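In 9 of 131 groups of 4 arrays, 1 array lay far from the other 3 by Dixon's criterion on the gap relative to the range of the group. Chance gives about 1 in 20. Of the 9, 3 were on Sle2c1_B1a 1: Ifi27l2a was lowest there at 2.86 (next 3.14), Ifi35 lowest at 2.83 (next 3.11) and Oasl2 highest at 1.04, with 2 of its group at the floor. In B6_B1a, Dhx58 was lowest on array 1 at 1.07 (next 1.46), Oasl1 highest on array 3 at 1.45 with the other 3 at the floor, and Ifi27l2a lowest on array 4 at 3.12 (next 3.18). In Sle2c1_Bs, Xaf1 and Parp9 were lowest on array 4 at 2.07 (the other 3 at 2.26) and 1.85 (next 2.01), and Gbp2 was highest on array 3 at 1.43 (next 1.25). The Gbp2, Parp9 and Ifi35 arrays bear on calls between the cell types; Gbp2 and Parp9 passed without any 1 array.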

How the results depend on the processing

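No interferon response gene passed between the strains, or for the difference of strain effects, under any setting tried, each replicate block included (0 calls). The median strain difference over the genes in B1a cells ran from -0.0975 to 0.06 over the alternatives. With 1 array left out, the median B1a against Bs difference in B6 ran from -0.10 to 0.06. Neither median has a settled sign. Between the cell types the replicate block over 16 arrays gave 12 calls in B6 and 13 in Sle2c1, and ended those of Cmpk2 (B6), Ifi35 and Rtp4 (Sle2c1); a block within each cell type could not be fitted there. The 12 calls in B6 became 7 after quantile normalization and 5 after median centring, and 6 to 14 when 1 array was left out. The 14 in Sle2c1 became 9 without a floor and 9 after median centring, and 10 to 15 when 1 array was left out. Gbp2, Gbp3 and Zbp1 passed in both strains under every setting and without any 1 array; Irf9, Oas1a and Parp9 (B6) lost their call under median centring alone (Parp9 adjusted p = 0.050). Over the 26 calls of single genes, 64 of 416 alternative values and 74 of 416 values with 1 array left out missed the threshold, and none changed sign. These values read the probe set of highest mean or an average of probe sets. Read singly, another probe set had the opposite sign for Eif2ak2 (0.155 in B6), Cmpk2 (0.20 in Sle2c1) and Parp14 (-0.035 in Sle2c1).

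Of pathway genes between the strains in B1a cells, 2 in the text, 1 passed with probe sets averaged, 4 with trend and robust fitting, 4 at a threshold of 0.10, 0 in a fit of 8 arrays, and 0 to 3 with 1 array left out. In Bs cells 1 passed without a floor, and 1 for the difference of strain effects with a floor at the 30th percentile. Of the 39 between the cell types in B6, 22 passed after median centring, 64 with array weights and 29 to 44 with 1 array left out; of the 39 in Sle2c1, 25 after median centring and 31 to 42. The cause was not tested. The median of all features shifted by over 0.1 without a floor (-0.113 in B6, -0.205 in Sle2c1). The score has no known scale, low genes lie near the floor, and the 95% interval of a strain difference reached 0.30 to either side in the median gene.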
